A study of Bos taurus with 6 samples.

Results

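The miR-2284 and miR-2285 family was examined in small RNA libraries of cultured bovine granulosa cells. All listed miRNAs whose name starts with bta-miR-2284 or bta-miR-2285 were taken as members, with any letter or arm suffix. This gave 148 of the 1028 listed miRNAs (14.4%), of which 31 are miR-2284 and 117 miR-2285 miRNAs. Granulosa cells surround the oocyte and produce oestradiol. They were collected by aspiration from slaughterhouse ovaries, out of antral follicles 3 to 6 mm wide, and cultured for 24 h before the treatment, at 37 °C. The control group then stayed at 37 °C for another 24 h and the heat-stressed (HS) group was moved to 42 °C for the same time, with 3 libraries each. The cells carried no transgene or drug treatment, and how many ovaries were pooled for a library is not stated in the labels. The files list miRNAs only, so messenger RNA markers of granulosa cells were not measured.

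MicroRNAs are short RNAs that guide Argonaute proteins to partly complementary messenger RNAs and lower their translation or stability. A precursor hairpin can give a mature miRNA from its 5p arm, its 3p arm, or both, and bases 2 to 8 of the mature miRNA, the seed, contribute most to target choice. The miR-2284 and miR-2285 genes form a large miRNA family annotated in cattle, with many similar copies spread over the genome, and no function is firmly known for most of them. Similar copies also make it hard to assign a short read to a single member, and the processing notes do not say how reads that fit several members were treated.

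The deposited values are reads scaled to CPM, the usual depth unit of sequencing reads, with trimmed mean of M-values factors (normalised CPM). Whole reads could be recovered from them. The listed miRNAs took 2076239 to 4590971 reads per library, and control replicate 1 was the shallowest by this count. A member with 0 reads in a library may still have been present at up to 3 reads, or 0.639 to 1.465 normalised CPM at the depths reached. This limit covers counting error only.

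It was first asked how much of the miRNA pool the family took up. The family was a small part of the pool in both groups, and its size was similar at both temperatures. The members of control replicates 1, 2 and 3 summed to 2077, 2648 and 2266 normalised CPM, and those of the HS replicates to 2284.2, 2088 and 2345. The highest and the lowest total were both control libraries, and the groups overlapped. On average 0.234% ± 0.032 of control miRNA reads and 0.224% ± 0.015 of HS miRNA reads belonged to the family (SD over 3 libraries each). The lowest library, control replicate 1, was at 0.205% (95% Wilson interval 0.199% to 0.211%) and the highest, control replicate 2, at 0.268% (0.263% to 0.273%). In cultures measured in bulk, a lower value can come from fewer expressing cells or from less RNA per cell, and these cannot be told apart.

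A single member made up most of this total. bta-miR-2284x, whose gene overlaps TIAM1, the gene of an activator of the small GTPase Rac, reached 1563, 1923 and 1558 normalised CPM for control replicates 1, 2 and 3. Its HS values were 1572, 1455 and 1550. Apart from the higher control replicate 2, the libraries lay close together and the groups overlapped. It ranked 62nd among all listed miRNAs and stood 11.4 times above the next member on mean normalised CPM. It held 66.1% of the family's reads in HS replicate 3 (95% Wilson interval 65.2% to 67.0%) and 75.3% in control replicate 1 (73.9% to 76.5%), the lowest and highest libraries. The 5 most abundant members together held 84.7% ± 0.929 of family reads at 37 °C and 83.1% ± 0.697 at 42 °C (SD over 3 libraries each). Without bta-miR-2284x, the remaining members added up to 649.1 ± 117 normalised CPM at 37 °C and 713.4 ± 81.3 at 42 °C.

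**Figure D1:**
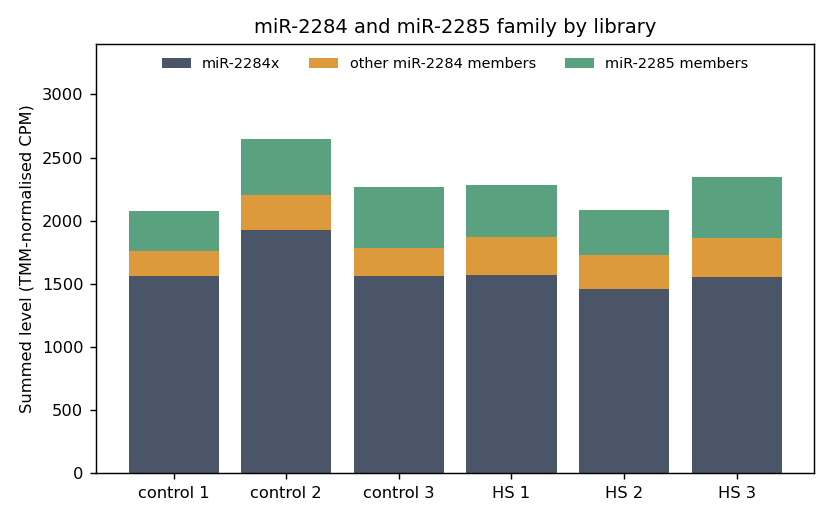
Summed normalised CPM of the family in each library, as stacked bars for bta-miR-2284x, the other miR-2284 members and the miR-2285 members. The totals run from 2077 to 2648, with bta-miR-2284x between 1455 and 1923 in every library.

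The number of members with a read was large compared with their level. Of the 148 members, 128 (86.5%) gave a read somewhere and 20 stayed at 0 throughout, 4 of them miR-2284 and 16 miR-2285. Over all 1028 listed miRNAs 73.4% had a read. For miR-2286 to miR-2490, the bovine miRNAs next in number, it was 144 of 241 (59.8%). The levels were low, however. The mean over the 6 libraries was under 1 normalised CPM for 75 members with a read, and 44 members had 1 to 6 reads in all libraries together. The median level of the members with a read was 0.699 normalised CPM, beside 3.47 for the 627 miRNAs with a read outside the family and 0.525 for miR-2286 to miR-2490. These are descriptions of the lists and their difference was not tested.

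**Figure D2:**
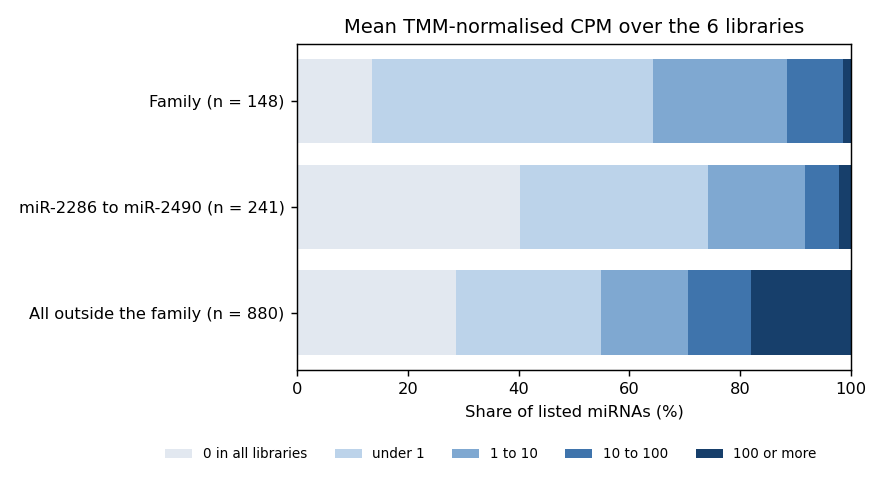
Share of listed miRNAs in 5 classes of mean normalised CPM, for the family, for miR-2286 to miR-2490 and for all 880 miRNAs outside the family. In the family 20 of 148 were at 0, 75 were above 0 and under 1, 36 between 1 and 10, 15 between 10 and 100, and 2 at 100 or more.

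Counted by library, control replicates 1, 2 and 3 held 81, 110 and 103 members with a read, and the HS replicates 92, 100 and 98. The number was lowest in the shallowest library. Thinned to the depth of that library, the control replicates would hold 81, 89.0 and 90.4 such members and the HS replicates 82.1, 86.8 and 82.5, so the groups overlapped. A member was called detected if 2 or 3 libraries of a group reached 10 normalised CPM. This held for 16 members at 37 °C and 18 at 42 °C, and the 16 were all among the 18. Thus 12.2% of the family was detected in either group, beside 27.0% of all listed miRNAs and 8.30% of miR-2286 to miR-2490. Of the 18 detected members, 8 belonged to the 31 miR-2284 and 10 to the 117 miR-2285 members.

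The members detected in HS cells alone were near the minimum in both groups. bta-miR-2285au measured 9.28, 14.6 and 8.64 normalised CPM at 37 °C, against 10.6, 11.7 and 11.1 at 42 °C. bta-miR-2284t-3p measured 6.35, 8.47 and 6.13 at 37 °C, against 10.9, 7.89 and 11.5 at 42 °C. In both cases the groups overlapped.

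**Figure D3:**
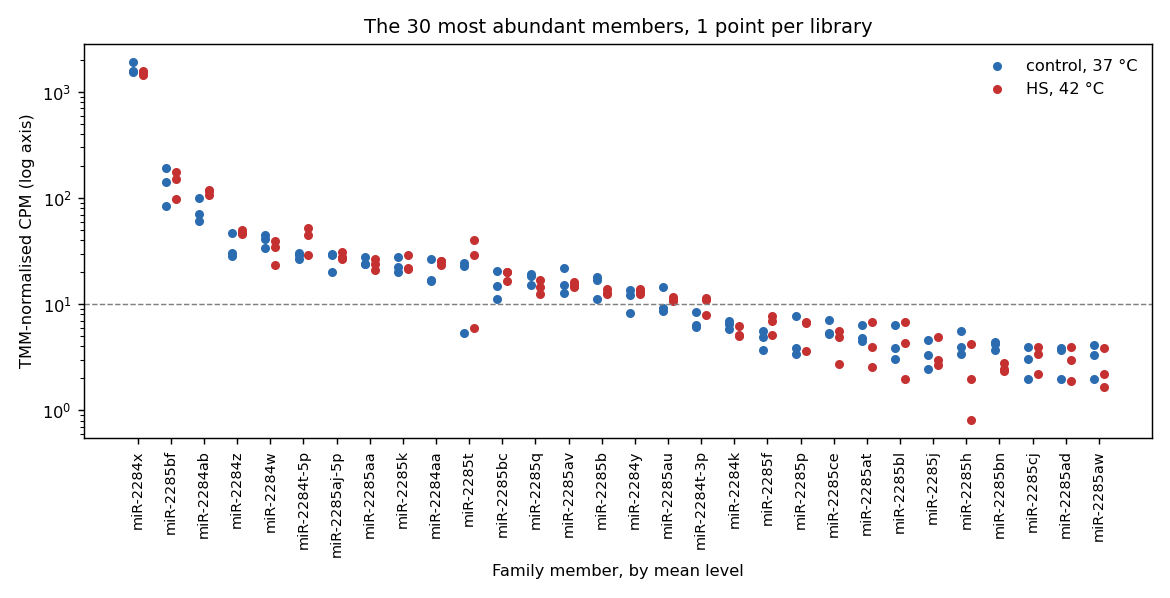
Normalised CPM of the 30 most abundant members on a log axis, with 1 point per library for control (blue) and HS (red) and a dashed line at 10 normalised CPM. bta-miR-2284x lies above all others, the second member averages 140.3, and the members right of bta-miR-2284t-3p lie under the line.

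To determine whether HS altered members of the family, all miRNAs that passed a filter on low reads were tested with limma, and p-values were adjusted over all 365 of them. The labels call the libraries biological replicates but do not tie them to separate donors, so the p-values measure only the spread between these libraries. Of the 148 members, 32 passed the filter, 96 had reads but too few and 20 had none. The first rule asked for a limma adjusted p up to 0.2 and a log2 fold change of 1 or more in size, and 0 of the 32 met it, beside 3.01% of all tested miRNAs. The second asked for a limma adjusted p under 0.05, and again 0 of 32 met it, beside 2.19%. At an unadjusted p under 0.05, limma had 2 of 32 members, beside 14.5% of all tested. The quasi-likelihood test of edgeR, run on whole reads, had 1 (13.7% of all tested) and the DESeq2 Wald test had 1 (13.4%), and neither had a member under an adjusted p of 0.05 or past the first rule. For DESeq2 this covers 25 of the 32, since 7 low members, bta-miR-2285bn and bta-miR-2285al-5p among them, received no adjusted p. The shares of the family were thus not above those of the whole table. The smallest adjusted p in the family was 0.278 by limma, for bta-miR-2285bn, and for bta-miR-2284ab it was 0.229 by DESeq2 and 0.343 by the edgeR test.

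The fold changes were spread evenly around 0. Of the 32 members 16 were higher and 16 lower in HS cells, and the median log2 fold change was -0.025, beside -0.0015 over all tested miRNAs. A change below 0.5 log2 units in either direction was found for 28 members (87.5%), beside 81.9% of all tested, and none reached 1. The values ran from -0.77 for bta-miR-2285h, named here only as this extreme, to 0.58 for bta-miR-2284ab. For the family the median replicate SD was 0.328 log2 units at 37 °C and 0.261 at 42 °C. Over all tested miRNAs, whose median level was 67.2 against 11.7 normalised CPM, it was 0.278 and 0.196.

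**Figure D4:**
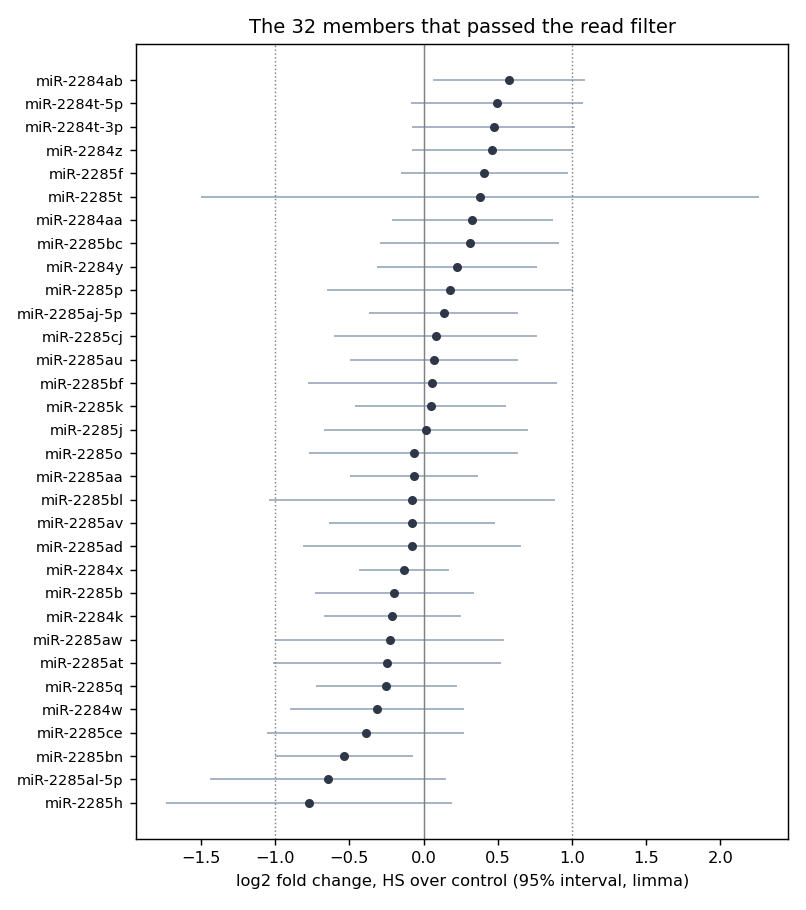
Log2 fold change of HS over control on the log2(value + 1) scale for the 32 members that passed the filter, with 95% intervals from limma. The points lie between -0.77 and 0.58, within the dotted lines at -1 and 1, and the widest interval belongs to bta-miR-2285t.

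For bta-miR-2284x the log2 fold change was -0.13 ± 0.129 (SE, limma adjusted p = 0.753), with a 95% interval of -0.44 to 0.17. It was -0.034 without control replicate 2. The difference over all libraries was within the spread between libraries, and its interval stayed within 1 log2 unit of 0. The members next in level had wider intervals. bta-miR-2285bf, with RefSeq genes that overlap FRAS1 and PCYT1B, had control values of 83.5, 140.8 and 193.6 normalised CPM, against HS values of 152.3, 97.1 and 174.5. Its lowest and highest values were both control libraries, and its log2 fold change was 0.06 with an interval of -0.78 to 0.90 (limma adjusted p = 0.964), and it ran from -0.27 without control replicate 1 to 0.34 without control replicate 3.

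bta-miR-2284ab showed the clearest separation upwards. Its gene overlaps AFF1, which encodes a scaffold of the super elongation complex. The control replicates 1, 2 and 3 had 61.0, 100.8 and 71.0 normalised CPM, against 118.1, 106.1 and 117.1 for the HS replicates. All HS libraries were above all control libraries, though control replicate 2 was close to HS replicate 2. It was the only one of the 32 tested members with this order (3.12%), beside 9.59% of all tested miRNAs. The log2 fold change was 0.58 ± 0.215 (SE, unadjusted p = 0.0322, limma adjusted p = 0.294), which did not pass the threshold. Without control replicate 2 it was 0.78, with a limma adjusted p of 0.147. Without each of the other libraries in turn it was 0.42 to 0.62, with limma adjusted p-values of 0.369 to 0.651.

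bta-miR-2284z and bta-miR-2284aa moved with bta-miR-2284ab from library to library. bta-miR-2284z, with 7 annotated genes, ran at 28.3, 46.9 and 30.6 normalised CPM under control conditions, against 47.4, 45.4 and 50.4 under HS. bta-miR-2284aa, with 4 annotated genes, ran between 16.6 and 26.7 under control conditions and between 23.7 and 25.5 under HS. In both, control replicates 1 and 3 were below every HS library. Control replicate 2 lay among the HS libraries for bta-miR-2284z and above them for bta-miR-2284aa, so the groups overlapped. Their log2 fold changes were 0.46 and 0.33 (limma adjusted p = 0.418 and 0.614), and 0.68 and 0.54 without control replicate 2 (limma adjusted p = 0.147 and 0.204). Without each of the other libraries in turn, the limma adjusted p was 0.468 to 0.701 for bta-miR-2284z and 0.671 to 0.829 for bta-miR-2284aa.

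The ratio of bta-miR-2284z to bta-miR-2284aa was 1.71, 1.76 and 1.80 for control replicates 1, 2 and 3, against 1.86, 1.92 and 1.98 for the HS replicates. The ratio of bta-miR-2284ab to bta-miR-2284z was 2.16, 2.15 and 2.32, against 2.49, 2.34 and 2.32. The third ratio of the trio, of bta-miR-2284ab to bta-miR-2284aa, was 3.68, 3.77 and 4.18, against 4.62, 4.48 and 4.58. In each of these ratios every HS library was above every control library, for the second only narrowly (2.321 against 2.318). Other ratios among abundant members separated the groups too, such as that of bta-miR-2284x to bta-miR-2284ab, with every HS library lower. How many ratios did so was not counted. The first and second ratios were the 2 steadiest of 136 ratios among the 17 members with a mean of at least 10 normalised CPM, and they were singled out after their values were seen. Their SD over the 6 libraries was 0.079 and 0.080 log2 units, beside a median of 0.393 over the 136 ratios. Counting error of independent reads corresponds to 0.216 and 0.155 log2 units for these ratios, which is more than was observed. Over the 136 ratios, 27 had an SD at or under their counting error. The ratios are not independent of each other, since they share members. Whether the same reads were counted for more than 1 of these members was not tested.

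**Figure D5:**
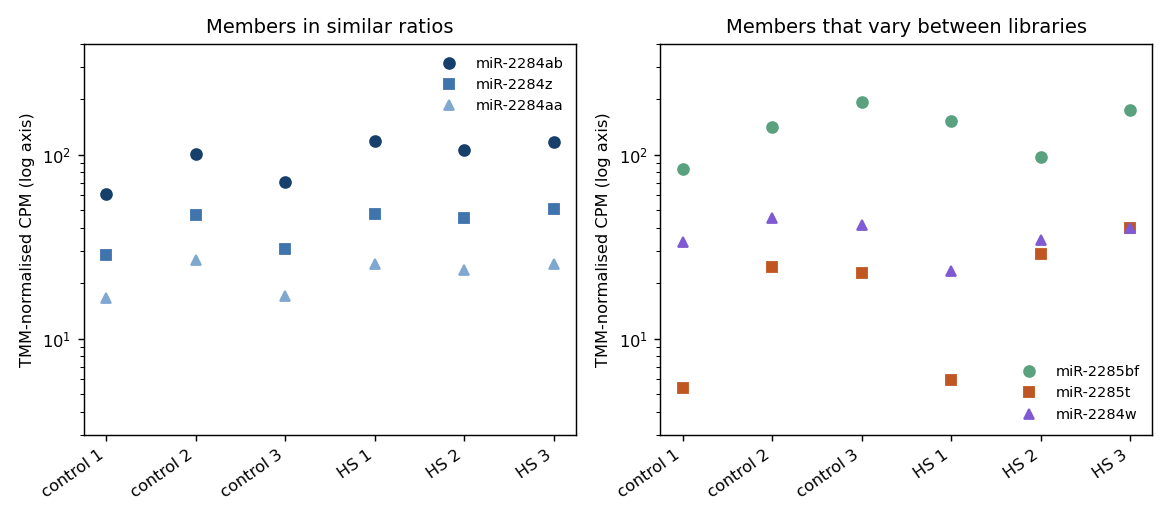
Normalised CPM on a log axis in each library for bta-miR-2284ab, bta-miR-2284z and bta-miR-2284aa (left) and for bta-miR-2285bf, bta-miR-2285t and bta-miR-2284w (right). The members on the left keep similar distances in every library, with the ratio of bta-miR-2284ab to bta-miR-2284aa between 3.68 and 4.62, while bta-miR-2285t is at 5.37 and 5.97 in the libraries numbered 1 and between 22.8 and 40.0 in the others.

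bta-miR-2284t was represented by both arms of its hairpin, whose gene overlaps SPON1, the gene of an extracellular matrix protein. The 5p arm gave 29.3, 26.5 and 30.1 normalised CPM at 37 °C, against 52.1, 29.1 and 44.5 at 42 °C. HS replicate 2 lay within the control range, and HS replicates 1 and 3 were above it. In the 3p arm, given above, HS replicate 2 was likewise the lowest HS library. The log2 fold changes were 0.50 ± 0.244 for the 5p arm and 0.47 ± 0.232 for the 3p arm (SE, limma adjusted p = 0.418 for each), and that of the 5p arm was 0.32 without HS replicate 1. Reads of the 5p arm exceeded those of the 3p arm in each library, by a factor of 3.13 to 4.91 at 37 °C and 3.69 to 4.76 at 42 °C. bta-miR-2284h, the other member listed with both arms, had at most 2 reads of either arm in any library.

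The tested members whose HS libraries lay below all control libraries were bta-miR-2285bn and bta-miR-2285al-5p. These were 2 of 32 (6.25%), beside 10.4% of all tested miRNAs. bta-miR-2285bn gave 4.39, 3.69 and 4.18 normalised CPM at 37 °C, against 2.32, 2.45 and 2.77 at 42 °C, on 7 to 17 reads per library. Its log2 fold change was -0.53 ± 0.196 (SE, unadjusted p = 0.0297, limma adjusted p = 0.278). bta-miR-2285al-5p gave 2.93, 3.69 and 4.18 normalised CPM at 37 °C, against 2.65, 0.816 and 2.77 at 42 °C, on 3 to 17 reads. It differed by -0.64 ± 0.334 on the log2 scale (SE, limma adjusted p = 0.441), and by -0.30 without HS replicate 2, which had 3 reads. Neither had an adjusted p of 0.2 or less in the fits that gave them one. The nearest was 0.20004 for bta-miR-2285bn in limma with upper quartile factors, a scaling that put the median log2 fold change of all tested miRNAs at -0.18.

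bta-miR-2285t stood out by its spread. Its gene overlaps FCGR2B, which encodes an inhibitory receptor for immunoglobulin G on immune cells. The control replicates 1, 2 and 3 had 5.37, 24.5 and 22.8 normalised CPM, against 5.97, 28.8 and 40.0 for the HS replicates, on 11 and 18 reads in the libraries numbered 1 and 82 to 188 in the others. The library numbered 1 was thus the lowest in both groups, and the highest value was 7.45 times the lowest. In the read statistics of the study, the library numbered 1 also had the lowest share of reads mapped to annotated miRNAs in each group. Whether this bears on bta-miR-2285t was not tested. The pooled SD of bta-miR-2285t within groups was 1.36 log2 units, or 5.40 times the counting error. Between groups the log2 fold change was 0.38 ± 0.794 (SE, limma adjusted p = 0.943). Its direction turned with single libraries, from -0.27 without control replicate 1 and -0.12 without HS replicate 3 to 1.15 without HS replicate 1. It was 0.50 (limma adjusted p = 0.440) without both libraries numbered 1.

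As FCGR2B is an immune gene, 4 miRNAs known from white blood cells were set beside these values, a list made after the values were seen. None of the 4 was at 0 in any library, and their sum lay between 700.2 and 842.7 normalised CPM at 37 °C and between 613.9 and 749.2 at 42 °C. bta-miR-142-3p gave 7.81, 24.1 and 21.2 at 37 °C, against 8.63, 14.4 and 19.8 at 42 °C, and its other arm, bta-miR-142-5p, was also lowest in the library numbered 1 of each group. bta-miR-150 had the opposite order, with its highest value in the library numbered 1 of each group (260.7 and 161.6). bta-miR-223 was highest in control replicate 1 and lowest in HS replicate 1 (311.0 and 195.8). For red blood cells 3 miRNAs were summed in the same way, at 52.7, 29.98 and 12.5 normalised CPM for control replicates 1, 2 and 3, against 62.7, 50.6 and 20.9 for the HS replicates, highest in the library numbered 1 of each group. Of these bta-miR-144 was at 0 in 3 libraries and bta-miR-451 reached at most 2.65, so the sum was mostly bta-miR-486. The part of either kind of cell in the values of bta-miR-2285t was not tested.

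In log2 units the other abundant members varied less, and relative to counting error bta-miR-2285bf and bta-miR-2284x varied more. Among the 17 members with a mean of at least 10 normalised CPM, the pooled SD within groups exceeded the counting error by more than 3 times in 4. These were bta-miR-2285bf (7.40 times), bta-miR-2284x (6.54 times), bta-miR-2285t and bta-miR-2284ab (3.14 times). For bta-miR-2284x the SD was 0.130 log2 units and the counting error 0.020. bta-miR-2285aa, whose gene overlaps that of the DNA repair helicase ERCC3, gave 23.9, 23.7 and 27.6 normalised CPM at 37 °C, against 26.9, 20.9 and 24.1 at 42 °C. Its SD of 0.154 log2 units was at the counting error of 0.160. bta-miR-2284w, with a gene in that of the GTPase activator DOCK11, gave 33.7, 45.2 and 41.2 at 37 °C, against 23.2, 34.5 and 39.8 at 42 °C. Its groups overlapped, and HS minus control was -0.32 log2 units (limma adjusted p = 0.656), or -0.098 without HS replicate 1.

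bta-miR-2285aj-5p, bta-miR-2285k and bta-miR-2285bc completed the 12 most abundant members. The first averaged 26.3 ± 5.49 normalised CPM at 37 °C and 28.6 ± 2.18 at 42 °C (SD, limma adjusted p = 0.853). bta-miR-2285k averaged 23.3 ± 3.89 against 24.2 ± 4.37 (limma adjusted p = 0.959), and bta-miR-2285bc 15.5 ± 4.75 against 18.9 ± 2.01 (limma adjusted p = 0.688). The groups overlapped for each.

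Members under the filter were examined by their reads. In a limma fit without the filter, 9 of the 128 members with a read had an unadjusted p under 0.05 (7.03%), beside 9.93% of the 755 miRNAs in that fit. Among the 9 was bta-miR-2284ab, which had passed the filter and is described above, and the others had not. Of the 9, 6 were higher and 3 lower in HS cells, and none had a limma adjusted p of at most 0.2. The members bta-miR-2284m, bta-miR-2285ak-5p, bta-miR-2285bd and bta-miR-2285cs are in a list that the study gives for these cells. Entry to that list followed unadjusted p-values and does not mean that a member passed after adjustment. The list was drawn from these libraries, so it is not independent evidence of direction.

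bta-miR-2284m had 4, 9 and 4 control reads against 1, 3 and 1 HS reads, or 1.67 ± 0.485 and 0.453 ± 0.319 normalised CPM (limma adjusted p = 0.275). bta-miR-2285cs had 1, 1 and 0 control reads against 4, 7 and 3 HS reads (limma adjusted p = 0.299). Their log2 fold changes were -0.88 and 0.87 on the log2(value + 1) scale, which compresses such low values, and -1.83 and 2.47 in the edgeR quasi-likelihood test without the filter (edgeR adjusted p = 0.388 for each). The groups did not overlap in either, and the HS values of the first and the control values of the second were at or under 3 reads. bta-miR-2285bd had 0, 5 and 4 control reads against 5, 9 and 9 HS reads (limma adjusted p = 0.415 without the filter). bta-miR-2285ak-5p had 2, 12 and 8 control reads against 4, 3 and 3 HS reads, where the groups overlapped (limma adjusted p = 0.619).

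The annotation offers a further way to describe the family. In RefSeq on the ARS-UCD2.0 assembly, 191 genes carry a family name, and 140 of the 148 members matched at least 1 of them. A single gene was found for 115 members and several for 25, with up to 7 for bta-miR-2284y, bta-miR-2284z and bta-miR-2285n. The median level was 1.67 normalised CPM for members with several genes and 0.366 for those with 1, while the most abundant member, bta-miR-2284x, had 1 gene and bta-miR-2285n had 7 genes at a mean of 0.837. Of the 191 genes, 125 overlap a protein-coding gene, and 97 members had such a gene. Their median was 0.698 normalised CPM, beside 0.163 for the 43 members whose genes overlap no protein-coding gene. The splits by gene number and by overlap are not separate. Of the 25 members with several genes, all but bta-miR-2285bj had a gene that overlaps a protein-coding gene. Of the 18 detected members, 15 had a gene that overlaps a protein-coding gene, 2 had none and 1, bta-miR-2285au, had no matched gene. The table used gives no strand, so whether a miRNA gene lies in the same direction as its host was not examined. These differences in level are descriptions and were not tested.

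Some family genes overlap each other. The 13 genes that overlap another miRNA gene, looked at after their values were seen, include MIR2284Z-6 with MIR2285Y and MIR2285Q with MIR2285Z. In these pairs bta-miR-2284z averaged 41.5 normalised CPM while bta-miR-2285y had 1 to 3 reads in each library. bta-miR-2285q averaged 16.2 while bta-miR-2285z was listed at 0 in all libraries. Levels were closer for MIR2285AV with MIR2285O-1 and MIR2284Y-4 with MIR2285O-3, where bta-miR-2285av averaged 16.0, bta-miR-2284y 12.3 and bta-miR-2285o 2.61. bta-miR-2284z, bta-miR-2284y and bta-miR-2285o have several genes each, so their level is not that of the overlapping gene alone. How reads were assigned where these genes overlap was not examined, so such values are uncertain to that extent.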

How the data were processed

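Small RNA libraries of 3 control and 3 HS granulosa cell cultures were analysed, with groups and replicate numbers from the labels. Per the processing notes and the methods of the study, the authors used cutadapt 1.11 for adapters, merged reads with the same molecular identifier, aligned with Bowtie2 2.2.2 to UMD3.1, named miRNAs by miRBase and applied TMM factors in edgeR. They deposited a signal for each miRNA and library, in TMM-normalised CPM. Dividing by the value of 1 read gave whole reads for 100% of values (tolerance 0.01).

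Tests used limma 3.58.1 with its trend option (R 4.3.3) on log2(value + 1), which understates the change of low miRNAs, for all miRNAs past the default filterByExpr filter of edgeR 4.0.16, with Benjamini-Hochberg adjustment over all of them. Alternatives were other scalings, filters, pseudocounts and tests (edgeR quasi-likelihood, DESeq2 1.42.0, limma-voom), the replicate number as a block, and omission of each library. Run on whole reads (100% of values), edgeR's quasi-likelihood test had 0 family members with an adjusted p up to 0.2. Intervals of shares are Wilson intervals (Python 3.11.15, scipy 1.17.1), and cover counting error only. Named members are the 12 most abundant, the 6 with the smallest p, those detected in 1 group alone and those in the list of the study. Further names were chosen after their values were seen. The members and lists were chosen with earlier results of these data known. Mature sequences were not analysed here, so the grouping by seed and the merging of identical members were left out. Gene names come from the RefSeq annotation of ARS-UCD2.0. The reads were mapped to another assembly, so no positions are given.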

Additional observations from a re-analysis of the deposited data

How the results depend on the processing

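No family member met either rule under any alternative fit that was run, apart from 7 members without a DESeq2 adjusted p, for which DESeq2 gives no answer. The median change of the family ran from -0.165 with upper quartile factors, which moved the median of all tested miRNAs to -0.178, to 0.132 on the log2 scale without control replicate 2. With an adjusted p of at most 0.2 and no fold change minimum, bta-miR-2284ab and bta-miR-2284z passed without control replicate 2 (limma adjusted p = 0.147 for each). The replicate number as a block gave 0 members at both rules, in limma and in the edgeR quasi-likelihood test. Deviations of same-numbered libraries correlated at 0.421, -0.117 and 0.616, and 4 of 6 libraries correlated best with their own number. The labels do not say whether a shared number means a shared cell pool, so the main fit had no block. Whether same-numbered libraries share a pool was not tested. Without the filter and with the block, both chosen together after the data were seen, bta-miR-2284m and bta-miR-2285cs had a limma adjusted p of 0.197, so they missed the first rule by their fold changes of -0.88 and 0.87 on the log2(value + 1) scale. Without the filter edgeR put these at -1.83 and 2.47, beyond the fold minimum, at an adjusted p of 0.388 for each.

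Of 307 comparisons of 20 named members with an adjusted p, 284 kept direction and side of the 0.2 threshold, 4 were newly past it and 19 changed sign in 6 members. With upper quartile factors the log2 fold change was -0.12 for bta-miR-2285bf, -0.044 for bta-miR-2285aj-5p, -0.13 for bta-miR-2285k and -0.10 for bta-miR-2285au. These sign changes come with the scaling itself, which shifted all tested miRNAs, and the values are above the shifted median. Without both libraries numbered 1 it was -0.34 for bta-miR-2285bf, -0.026 for bta-miR-2285aj-5p and -0.19 for bta-miR-2285k. Leaving out single libraries gave ranges that include 0 for these and others, -0.27 to 0.34 for bta-miR-2285bf, -0.043 to 0.24 for bta-miR-2285aj-5p, -0.089 to 0.17 for bta-miR-2285k, -0.061 to 0.28 for bta-miR-2285au, -0.27 to 1.15 for bta-miR-2285t and -0.15 to 0.023 for bta-miR-2285aa. The cause of the sign changes without single libraries or without both libraries numbered 1 was not tested.

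Detection followed its minimum. At 1 normalised CPM 55 members were detected in control and 52 in HS cells, and at 100 there were 2 and 3. Requiring 4 reads lowered the mean number of members per library to 55 in control and 54.7 in HS cells. Without bta-miR-2284x the family share was 0.065% in control and 0.071% in HS cells, and the next 5 members held 49.1% and 52.7% of the remaining family reads. Merging members with identical mature sequences was not run.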
